A study of Mus musculus with 12 samples.

Results

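Gene expression was examined for 9 genes of lysophosphatidic acid (LPA) and sphingosine-1-phosphate (S1P) signalling in mouse embryonic fibroblasts, described in the study's methods as NIH3T3 cells, an established mouse fibroblast line. The genes were the rows of the deposited count table with the symbols Plpp1, Plpp2, Plpp3, Enpp2, Lpar1, Lpar4, S1pr2, S1pr3 and Sphk1, which are 9 of the 54447 features of the table. The set was chosen by the lower count of Plpp3 with doxycycline (dox) in N-VEGF cells, so the values of that comparison are given as a description, with no test. All 9 genes passed the filter on low counts and were among the 13608 genes tested.

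The cells had been infected with a lentiviral vector that carries the Tet activator, a dox-inducible promoter and either N-VEGF, the N-terminal part of the long form of VEGF, or NLS-N-VEGF, the same part with the nuclear localization sequence of Cas9. All cells carried such a construct and were selected with puromycin, as a population and not as a single clone, and there was no group without a construct, so the groups without dox serve as the controls. The 4 groups of 3 libraries were NLS-N-VEGF no dox, NLS-N-VEGF dox, N-VEGF no dox and N-VEGF dox, and the dox groups were collected 16 hours after dox was added. In each group the labels named a library 1 and a library 2 with the suffix _120519 and a library 2 with the suffix _290419. The labels do not say what the suffix marks, nor whether libraries came from separate cultures, so p-values measure only the spread between these libraries.

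Total counts per library lay between 13549331 and 18982127, and 3 counts corresponded to 0.158 to 0.221 CPM, the normalised read count scaled to library size. The row of the construct insert held 5 to 12 counts in the libraries without dox and 35 to 268 in those with dox. The NLS-N-VEGF dox libraries held 48 and 35 counts at suffix _120519 and 173 at suffix _290419. The N-VEGF dox libraries held 121 and 149 at suffix _120519 and 268 at suffix _290419. In both populations the _290419 library with dox thus held the most. All 12 fibroblast markers of a list (such as Col1a1, Vim and Thy1) had a mean of at least 1 CPM, with a summed level of 13005 to 16519 CPM. The summed levels of 8 endothelial, 6 leukocyte and 6 epithelial markers lay between 3.52 and 5.74, 8.24 and 13.5, and 0.88 and 1.87 CPM. Those with a mean of at least 1 CPM were the leukocyte markers Csf1r and Cd68, the endothelial Cdh5 and the epithelial Cdh1. They had 65 to 175, 39 to 91, 30 to 55 and 8 to 32 reads per library. The leukocyte marker Tyrobp and the epithelial marker Krt19 were at 0 counts in all libraries. The libraries with the suffix _290419 stood apart from the other 8: 45.6% of the genes tested differed between the suffixes.

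LPA and S1P are small phospholipids that signal between cells through G protein-coupled receptors of the LPAR and S1PR families, which couple to Gi, Gq and G12/13 proteins. LPA is formed outside the cell by autotaxin, the secreted product of Enpp2, and S1P is formed inside the cell from sphingosine by sphingosine kinases such as Sphk1. The lipid phosphate phosphatases encoded by Plpp1, Plpp2 and Plpp3 are membrane enzymes that remove the phosphate of LPA, S1P and related lipids at the cell surface, and so end the signal. Fibroblasts are a classical cell type for these lipids, which are the serum factors that drive their stress fibres and contraction.

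The sequence upstream of the start is shown for 3 of the genes, Plpp3, which named the set, and S1pr2 and Sphk1, which differed most between the suffixes together with Plpp1. The 250 bases before the start were taken from RefSeq on build GRCm38.p6, in which 7 of the 9 genes had an entry (Plpp1 and Enpp2 had none). They lay at chr4:105157097-105157346 on the plus strand for Plpp3, at chr9:20976794-20977043 on the minus strand for S1pr2, and at chr11:116530850-116531099 on the plus strand for the first of the RefSeq starts of Sphk1. Capitals mark a match to a motif.
Plpp3: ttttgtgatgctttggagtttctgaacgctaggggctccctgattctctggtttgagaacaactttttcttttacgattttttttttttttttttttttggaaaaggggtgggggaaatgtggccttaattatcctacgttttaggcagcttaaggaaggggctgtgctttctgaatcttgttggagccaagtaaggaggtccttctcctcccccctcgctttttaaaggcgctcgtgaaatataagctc
S1pr2: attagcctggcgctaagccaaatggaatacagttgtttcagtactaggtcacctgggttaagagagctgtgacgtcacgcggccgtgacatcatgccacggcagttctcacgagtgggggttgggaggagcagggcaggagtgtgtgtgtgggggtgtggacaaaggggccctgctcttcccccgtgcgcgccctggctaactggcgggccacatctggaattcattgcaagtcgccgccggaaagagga
Sphk1: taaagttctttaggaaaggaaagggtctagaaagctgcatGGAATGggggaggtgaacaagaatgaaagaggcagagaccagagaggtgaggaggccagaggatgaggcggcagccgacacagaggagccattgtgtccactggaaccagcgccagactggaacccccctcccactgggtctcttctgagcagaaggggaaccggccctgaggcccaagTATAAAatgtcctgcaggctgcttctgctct

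Both strands were searched for the TEAD element GGAATG, the hypoxia response core ACGTG, the Sp1 box GGGCGG, the TATA box TATAAA and the CArG box of SRF. In the Sphk1 window, GGAATG lay 210 to 205 bases and TATAAA 31 to 26 bases before the start. These letters were found in 12.6% and 12.4% of 32851 windows of the same length in RefSeq. In the windows of Plpp3 and S1pr2 the 5 motifs had no match, and the G and C content was 42.4% for Plpp3, 59.2% for S1pr2 and 55.6% for Sphk1. The hypoxia response core, the Sp1 box and the CArG box were found in 16.6%, 32.7% and 1.47% of all windows. At the other starts of Sphk1, the hypoxia response core matched in 2 windows, which overlap and hold the same site. The site is CACGTG, which reads the same on both strands and so matches on both. It lay 95 to 90 bases before start 4 and 102 to 97 bases before start 5. The window of Lpar4 also held a TATA box, 203 to 198 bases before the start. Sp1 boxes were found upstream of Plpp2, Lpar1, Lpar4 and S1pr3, and none of the windows of the 7 genes held a CArG box.

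Levels were first compared between genes per exon length, as RPKM, the CPM per kilobase of exon, mean ± SD over 12 libraries. Plpp3 had the highest level at 34.0 ± 6.50 RPKM, and was above the next gene in 12 of 12 libraries. The receptor Lpar1 (23.8 ± 2.2 RPKM) and Plpp2 (23.7 ± 2.49 RPKM) followed. These neighbours could not be ordered, since Lpar1 was higher than Plpp2 in 7 of 12 libraries.

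Plpp1 (18.1 ± 3.89 RPKM) was below Plpp2 in 10 of 12 libraries and above the S1P receptor S1pr3 (11.3 ± 1.41 RPKM) in all 12. S1pr3 in turn was above S1pr2 (4.87 ± 0.93 RPKM) in 12 of 12 libraries. The enzymes that form the lipids were far lower, with Enpp2 at 1.75 ± 0.21 RPKM and Sphk1 at 1.64 ± 0.56 RPKM, and Enpp2 was the higher one in 5 of 12 libraries only. Lpar4, an LPA receptor of the P2Y-like family, was lowest at 0.24 ± 0.10 RPKM, with 4 to 30 reads per library. The exons of Plpp1 share 25.8% of their bases with the antisense gene Mtrex, and those of Enpp2, Sphk1 and S1pr3 share 5.97%, 4.02% and 1.01% with other antisense genes. The counting option for strand is not given in the sources used here, so the levels of Plpp1 in particular are uncertain.

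Other receptors of the families were detected at lower counts. Lpar2 had 10.8, S1pr1 3.39 and Lpar6 2.68 CPM over all libraries. Lpar3, Lpar5, S1pr4 and S1pr5 did not pass the filter, with at most 5 reads in any library. At this depth the receptors with the most reads were thus Lpar1 (102.2 CPM), S1pr3 (50.6 CPM) and S1pr2 (38.8 CPM), and the plot of CPM by library shows all 9 genes.

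**Figure D1:**
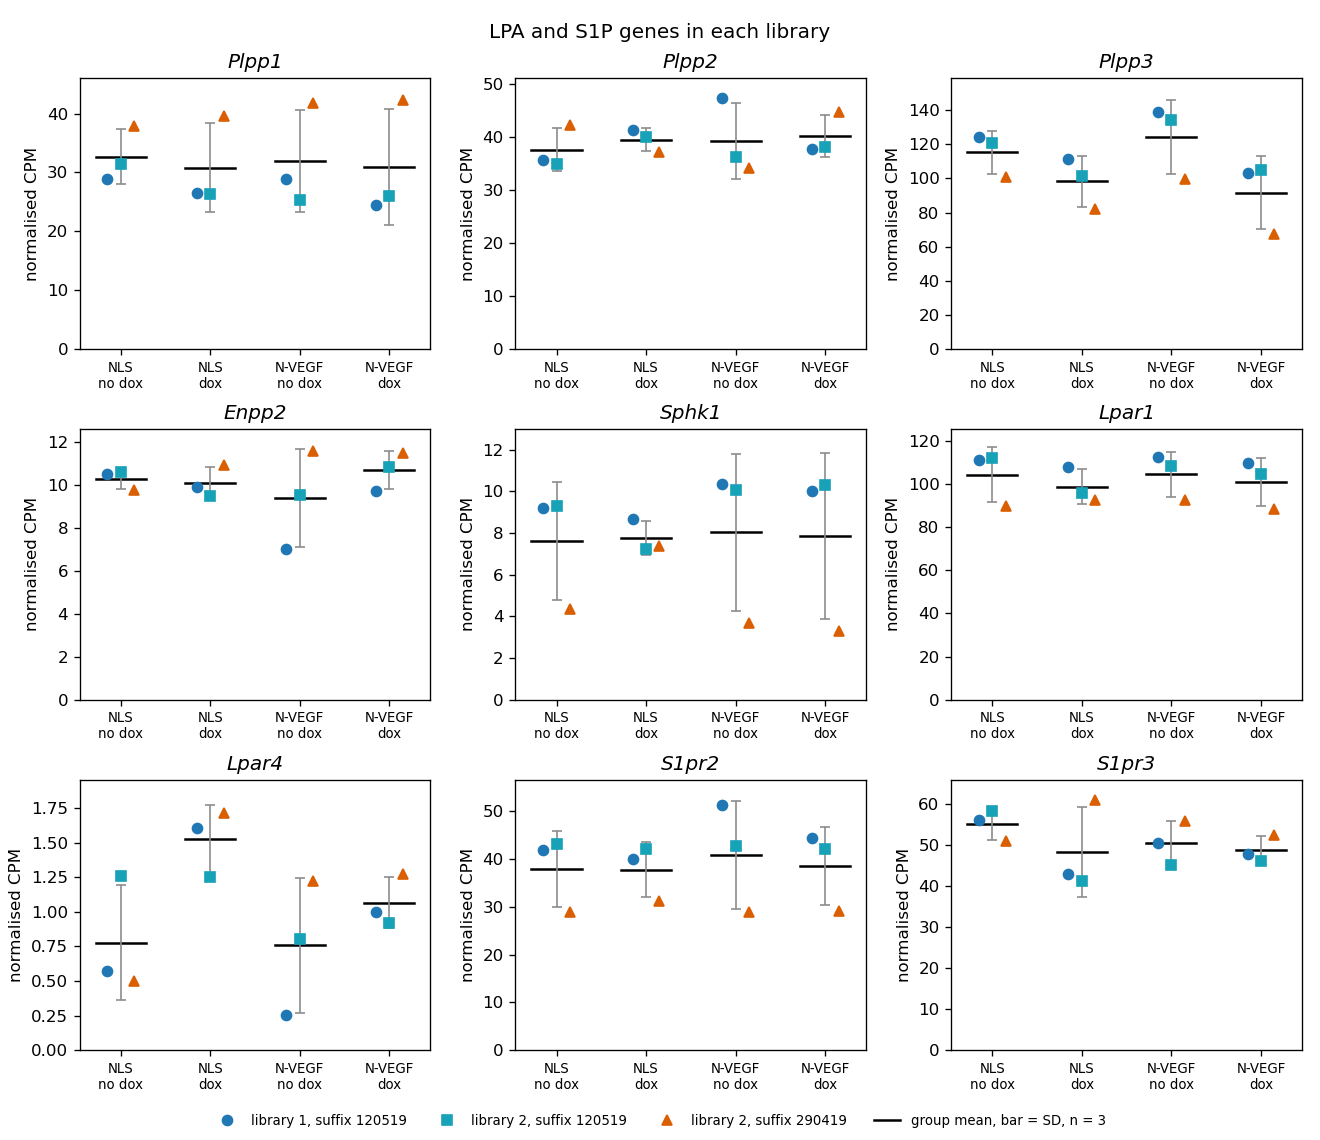
Normalised CPM (y axis, from 0) of the 9 genes in each of the 12 libraries, by group (x axis, NLS is NLS-N-VEGF), with the symbol giving the library number and suffix, the line the group mean and the bar the SD of 3 libraries. The mean of Plpp3 is lower with dox in both populations, with overlapping groups. The N-VEGF values chose the gene, and the NLS-N-VEGF difference did not pass the test. The _290419 library is the lowest of its group for Plpp3, Lpar1 and S1pr2 and the highest for Plpp1.

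Plpp3 (Ensembl ENSMUSG00000028517, chr4:105157347-105232764, plus strand, build GRCm38) encodes the phosphatase that carried the pattern behind the set. In N-VEGF cells without dox its level was 138.8, 134.4 and 99.5 CPM, and with dox it was 103.3, 104.7 and 67.3 CPM, each in the order library 1 and library 2 with suffix _120519, then library 2 with suffix _290419. Each library with dox was below the library of the same label without dox, although the groups overlapped, because the _290419 library without dox was below the 2 libraries of suffix _120519 with dox. The fitted log2 fold change was -0.44 (SE 0.18), a level 26.1% lower. When the replicate label was added to the model as a block it was -0.45 (SE 0.08). These values chose the gene, so nothing is read from them and no call of Plpp3 is made here. Of all genes tested, 0.0367% passed in this comparison without the block and 0.110% with it.

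The NLS-N-VEGF libraries took no part in the choice of Plpp3, so its level there could be tested. Without dox it was 124.3, 120.8 and 100.7 CPM, and with dox 111.6, 101.4 and 81.8 CPM. Again each library with dox was below its partner of the same label and the groups overlapped. The log2 ratios of the 3 pairs were -0.16, -0.25 and -0.30, against -0.43, -0.36 and -0.56 in the N-VEGF cells, the pairs that chose the gene. A shared direction of 3 pairs was not tested, and Plpp3 was not alone in it. In N-VEGF cells Lpar1 was lower with dox in all 3 pairs, and Lpar4 was higher in all 3.

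In the NLS-N-VEGF cells the fitted log2 fold change was -0.23 (SE 0.18, interval of 2 SE from -0.60 to 0.14), which did not pass the test (edgeR quasi-likelihood, unadjusted p = 0.232, Benjamini-Hochberg adjusted p = 0.9998 over 13608 genes). Adding the replicate label as a block made the spread smaller, and the log2 fold change of -0.24 (SE 0.08) had an unadjusted p of 0.00712 and an adjusted p of 0.368 (edgeR), which also did not pass. In that fit 0.125% of all genes passed. In bulk samples such as these, a lower level per cell and a smaller share of cells with a given level cannot be told apart.

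For the other 2 phosphatases no change with dox was resolved. Plpp1 (ENSMUSG00000021759, chr13:112800792-112867894) was at 28.8, 31.4 and 37.8 CPM in the NLS-N-VEGF no dox group and at 26.5, 26.4 and 39.5 CPM in the NLS-N-VEGF dox group. In the N-VEGF no dox and dox groups the values were 28.9, 25.3 and 41.7 CPM against 24.5, 25.9 and 42.3 CPM. The libraries fell apart by suffix and not by dox, and the fitted log2 fold changes with dox were -0.08 (SE 0.24) and -0.05 (SE 0.24). Both had the sign of Plpp3. Their intervals of 2 SE, from -0.57 to 0.41 and from -0.54 to 0.44, included 0 and also the values of Plpp3. Plpp2 (ENSMUSG00000052151, chr10:79526430-79533796) stayed within 34.1 to 47.4 CPM over all 12 libraries, with log2 fold changes of 0.07 (SE 0.13) and 0.03 (SE 0.13) and pairs in both directions in both populations.

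The enzymes that make the 2 lipids had no shared direction. Enpp2 (ENSMUSG00000022425, chr15:54838901-54952892), which encodes autotaxin, lay between 7.04 and 11.6 CPM, and the fitted dox effects were -0.03 (SE 0.16) for the NLS-N-VEGF and 0.19 (SE 0.16) for the N-VEGF population on the log2 scale. Sphk1 (ENSMUSG00000061878, chr11:116530925-116536674) was at 9.20, 9.30 and 4.36 CPM in the NLS-N-VEGF no dox group and at 8.68, 7.21 and 7.40 CPM in the NLS-N-VEGF dox group. The N-VEGF no dox libraries were at 10.4, 10.04 and 3.67 CPM and the N-VEGF dox libraries at 9.998, 10.3 and 3.28 CPM. The NLS-N-VEGF dox library of suffix _290419 was thus within the range of the _120519 libraries, while the other 3 libraries of suffix _290419 were below it, and its pair had a log2 ratio of 0.73 where the other 2 pairs of that population had -0.08 and -0.36. The fitted log2 fold changes were 0.02 (SE 0.44) and -0.02 (SE 0.44).

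Among the receptors, Lpar1 (ENSMUSG00000038668, chr4:58435255-58553898), the main LPA receptor of fibroblasts, varied least, from 88.5 to 112.6 CPM, and its dox effects were -0.08 and -0.05 (SE 0.12 each) on the log2 scale. S1pr2 (ENSMUSG00000043895, chr9:20962361-20976781), which couples to G12/13, had -0.01 and -0.09 (SE 0.23 each). Lpar4 (ENSMUSG00000049929, chrX:106920625-106933900) was covered by 10, 20 and 7 reads in the NLS-N-VEGF no dox and by 30, 17 and 29 in the NLS-N-VEGF dox libraries. In N-VEGF cells it was 4, 13 and 21 reads against 16, 17 and 19. Its groups overlapped in both populations, and the log2 fold change in NLS-N-VEGF cells was 0.97 (SE 0.47, edgeR unadjusted p = 0.062, adjusted p = 0.9998), which did not pass. The value in N-VEGF cells was 0.47 (SE 0.48).

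S1pr3 (ENSMUSG00000067586, chr13:51408639-51422797), a receptor that couples to Gi, Gq and G12/13, gave different values in the 2 suffixes. The NLS-N-VEGF no dox libraries were at 56.0, 58.3 and 50.8 CPM and the NLS-N-VEGF dox libraries at 43.0, 41.1 and 60.9 CPM. Both pairs of suffix _120519 were lower with dox (log2 ratios of -0.38 and -0.50) and the pair of suffix _290419 was higher (0.26), and the fitted log2 fold change over all libraries was -0.19 (SE 0.14), which did not pass (edgeR, unadjusted p = 0.211, adjusted p = 0.9998). In a fit of the _120519 libraries alone it was -0.45 (SE 0.08, edgeR adjusted p = 0.0367), and it was the only 1 of the 9 genes called there, where 0.814% of 13387 genes passed. That fit had 2 libraries per group, and its SE covers only the spread between libraries of 1 suffix. Whether these came from separate cultures is not stated. The difference between the suffixes in this effect was not tested. The N-VEGF no dox libraries were at 50.3, 44.98 and 55.7 CPM and the N-VEGF dox libraries at 47.7, 46.0 and 52.4 CPM, a log2 fold change of -0.05 (SE 0.14).

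**Figure D2:**
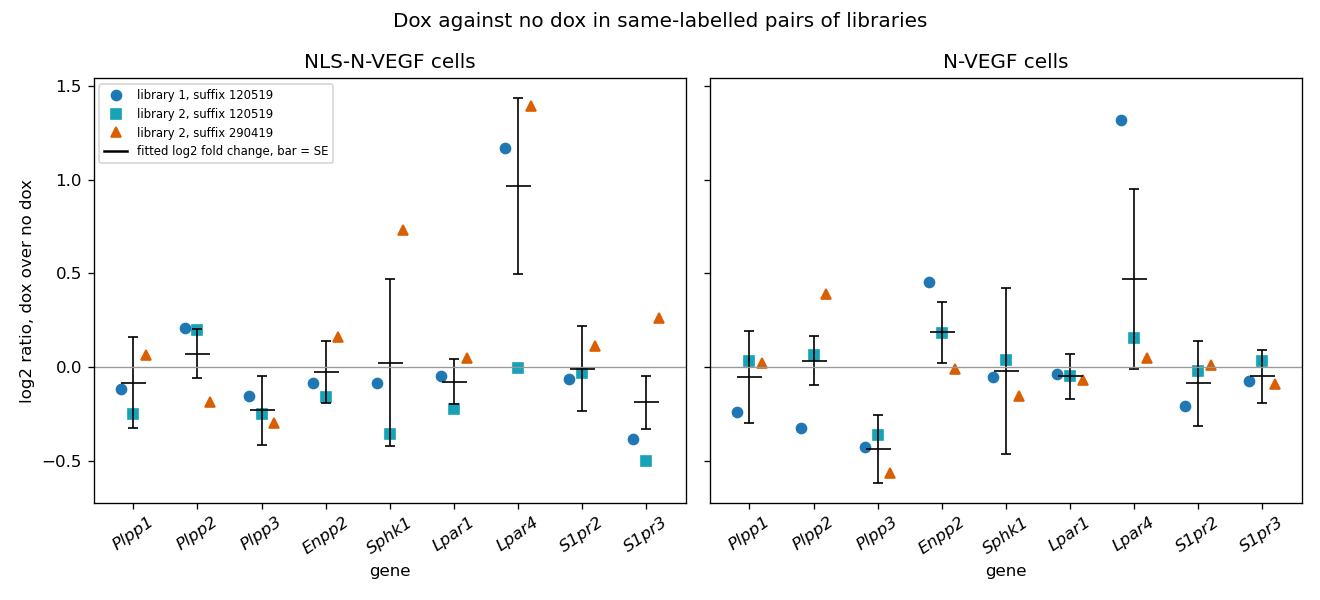
Log2 ratio of dox over no dox (y axis) for the 9 genes (x axis), by population, with 1 symbol for each pair of libraries of the same label and a black bar for the fitted log2 fold change with its SE. The symbols of Plpp3 lie below 0, from -0.16 to -0.30 in NLS-N-VEGF cells and from -0.36 to -0.56 in N-VEGF cells, whose values chose the gene, and the _290419 symbols of Sphk1 (0.73) and S1pr3 (0.26) in NLS-N-VEGF cells lie above 0.

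In total, 0 of the 9 genes passed the edgeR test for dox in NLS-N-VEGF cells, where 0.0220% of all genes passed. None of the 9 had an unadjusted p under 0.05 either, and DESeq2 called 0. With the replicate label as a term, 0 passed and 2 had an unadjusted p under 0.05 (edgeR), Plpp3 as given above and Lpar4, whose log2 value was 0.98 (SE 0.40, unadjusted p = 0.0253, adjusted p = 0.586). The median log2 fold change of the 9 was -0.03 in NLS-N-VEGF and -0.05 in N-VEGF cells, beside medians of 0.000178 and 0.0022 over all genes tested.

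The design also allows the dox effect to be compared between the populations. They differ in the nuclear localization sequence and also in the counts of the construct insert with dox, and the 2 cannot be told apart. For the difference of the dox effects, NLS-N-VEGF minus N-VEGF, 0 of the 8 genes other than Plpp3 passed (edgeR, 0 at an unadjusted p under 0.05, DESeq2 0), beside 0.00% of all genes tested. Plpp3 carries no test here because the comparison uses the libraries that chose it, and its difference was 0.21 (SE 0.26) on the log2 scale. The values of the others ran from -0.21 (SE 0.23) for Enpp2 and -0.14 (SE 0.20) for S1pr3 to 0.50 (SE 0.68) for Lpar4. The intervals of 2 SE ran from -0.37 to 0.31 for Lpar1 and from -1.21 to 1.30 for Sphk1, so only for the former would a change of 2-fold in either direction have been outside the interval.

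The 2 populations were also compared directly. Without dox, the log2 fold changes of NLS-N-VEGF over N-VEGF lay between -0.11 for Plpp3 (SE 0.18) and S1pr2 (SE 0.23) and 0.13 for Enpp2 (SE 0.16) and S1pr3 (SE 0.14). With dox, Lpar4 had 0.53 (SE 0.45), with 1.53 ± 0.24 CPM in NLS-N-VEGF and 1.065 ± 0.18 CPM in N-VEGF cells (SD, n = 3). Its log2 ratios in the 3 pairs were 0.57, 0.36 and 0.37. Plpp3 had 0.10 (SE 0.18), and the other 7 lay between -0.08 and -0.002. In both comparisons 0 of the 8 genes that could be tested passed (edgeR, 0 at an unadjusted p under 0.05, DESeq2 0), beside 0.00% of all genes in each. The mean level of Plpp3 was 115.3 ± 12.7 CPM in the NLS-N-VEGF no dox group, 98.3 ± 15.1 CPM in the NLS-N-VEGF dox group, 124.3 ± 21.5 CPM in the N-VEGF no dox group and 91.8 ± 21.2 CPM in the N-VEGF dox group (SD, n = 3).

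The spread within the groups followed the label suffix, which is balanced over the 4 groups and did not enter the choice of the genes. With the group in the model, 5 of the 9 genes differed between the 4 libraries of suffix _290419 and the 8 of suffix _120519 (edgeR), 1 higher and 4 lower, beside 45.6% of all genes tested, 22.2% higher and 23.5% lower. DESeq2 called 5 as well. The share of the 9 genes is close to that of all genes, and the values are given because the suffix touches each comparison above.

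The phosphatases went in opposite directions. Plpp1 was 37.8 to 42.3 CPM in the _290419 libraries and 24.5 to 31.4 CPM in the _120519 libraries, with no overlap, or 0.57 higher on the log2 scale (SE 0.07, edgeR adjusted p = 6.33e-06). Plpp3 was 67.3 to 100.7 CPM against 101.4 to 138.8 CPM, again with no overlap, with -0.43 on the log2 scale (SE 0.06, edgeR adjusted p = 1.95e-05), a level lower by 26.0%, the size of its change with dox in N-VEGF cells. Plpp2 overlapped, at 34.1 to 44.7 against 34.9 to 47.4 CPM, with a log2 fold change of 0.02 (SE 0.09, interval of 2 SE from -0.15 to 0.20).

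Of the lipid-forming enzymes, Sphk1 fell and Enpp2 did not pass. Sphk1 was 3.28 to 7.40 CPM in the _290419 and 7.21 to 10.4 CPM in the _120519 libraries, or -1.01 on the log2 scale (SE 0.18, edgeR adjusted p = 2.7e-04). The ranges overlapped only through the NLS-N-VEGF dox library of suffix _290419 described above, and without that library the log2 fold change was -1.39. Enpp2 had 9.78 to 11.6 against 7.04 to 10.8 CPM (log2 fold change 0.18, SE 0.10, edgeR adjusted p = 0.158).

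Of the receptors, S1pr2 and Lpar1 fell. S1pr2 had 28.8, 31.2, 28.8 and 29.1 CPM in the _290419 libraries and 40.0 to 51.3 CPM in the others, without overlap, or -0.56 on the log2 scale (SE 0.07, edgeR adjusted p = 7.53e-06). Lpar1 was 88.5 to 92.8 against 95.9 to 112.6 CPM, also without overlap, with -0.24 (SE 0.05, edgeR adjusted p = 0.00121). Over all genes tested, the 4 libraries of suffix _290419 lay below the other 8 in 14.9% and above them in 13.1%. S1pr3 had 50.8 to 60.9 against 41.1 to 58.3 CPM, and the difference of 0.19 on the log2 scale (SE 0.08, edgeR adjusted p = 0.0566) just missed the threshold, which it passed without the NLS-N-VEGF no dox library of suffix _290419 (0.30) or without library 1 of N-VEGF no dox (0.21). Lpar4 had 0.31 (SE 0.30, edgeR adjusted p = 0.412).

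Of the 12 fibroblast markers 8 were called between the suffixes (edgeR), beside 45.6% of all genes, among them Pdgfra (log2 fold change -1.32) and Col3a1 (-1.22), which were lower, and Thy1 (0.53), which was higher in the _290419 libraries. The summed level of these markers was 13153 to 15350 CPM in the _290419 libraries and 13005 to 16519 CPM in the others, and that of the endothelial markers was 4.69 to 5.01 against 3.52 to 5.74 CPM. Of the other markers, 2 of 2 tested leukocyte and 2 of 4 tested endothelial genes were called (edgeR). In each of these lists 1 was higher and 1 lower. The 1 tested epithelial marker was not called. The part of cell state, culture or sequencing in the suffix difference was not tested.

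**Figure D3:**
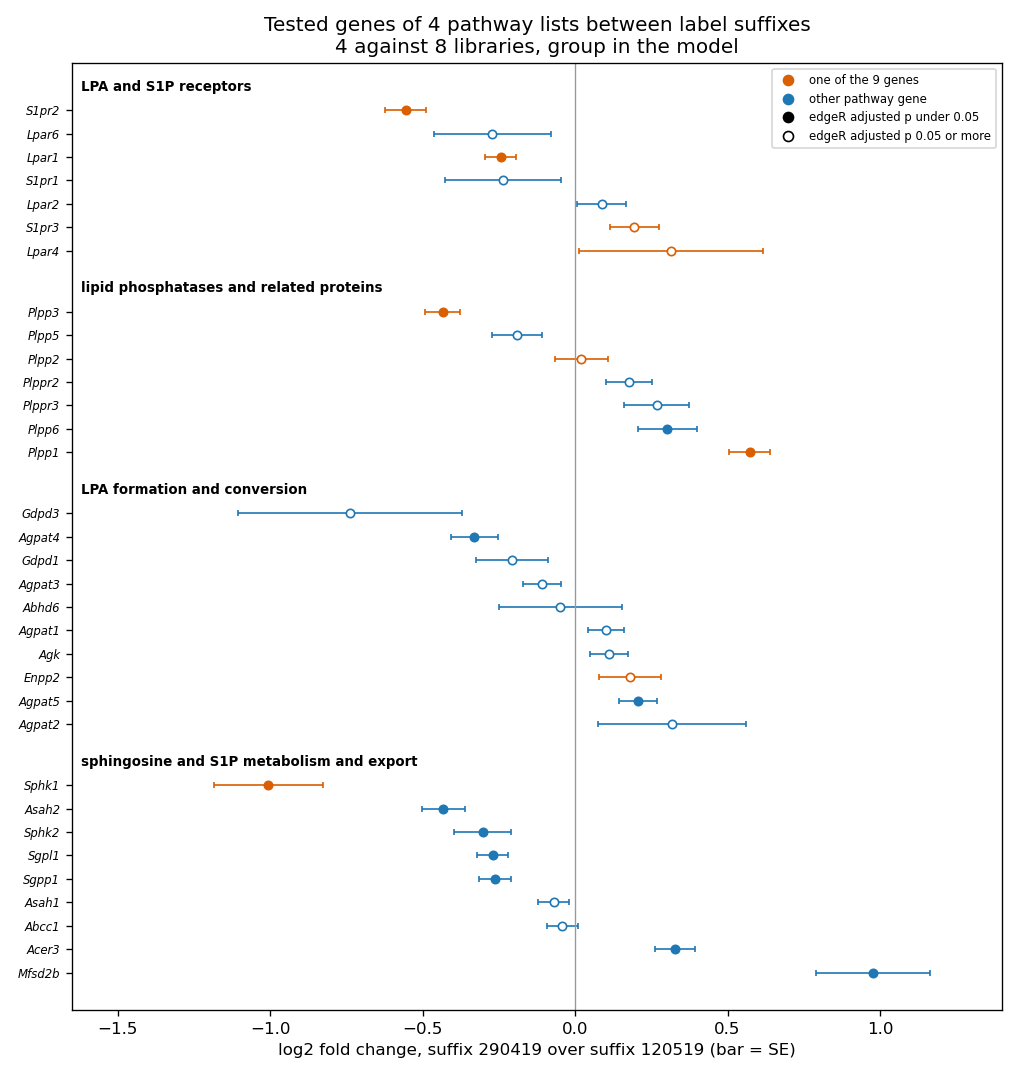
Log2 fold change with its SE (x axis) between the libraries of suffix _290419 and _120519 for the genes of 4 of the pathway lists that could be tested, in orange the 9 genes and in blue the others, filled where the adjusted p is under 0.05. Sphk1 (-1.01) and Mfsd2b (0.98) lie farthest out among the filled symbols, and Plpp1 (0.57) and Plpp3 (-0.43) lie on opposite sides of 0.

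The rest of the pathway was followed in 5 lists (receptors, lipid phosphatases and related proteins, LPA formation and conversion, S1P metabolism and export, and a list that is not described on its own), which held 53 genes beside the 9. Of these, 36 passed the filter. With dox, 0 of the 36 passed in NLS-N-VEGF and 0 in N-VEGF cells (edgeR, 1 and 0 at an unadjusted p under 0.05, DESeq2 0 and 0), beside the 0.0220% and 0.0367% of all genes given above. Their median log2 fold change was 0.08 in NLS-N-VEGF cells, with 24 of 36 above 0, and -0.02 in N-VEGF cells, with 15 of 36 above 0. For the difference of the dox effects and for the 2 population comparisons the count was 0 of 36 as well (edgeR, 0 at an unadjusted p under 0.05 in each, DESeq2 0 in each).

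Between the suffixes, 16 of the 36 genes (44.4%) were called (edgeR), 5 higher and 11 lower in the _290419 libraries, beside 45.6% of all genes, and their median log2 fold change was -0.11 against 0.005 over all genes. In the list of S1P metabolism and export, 7 of 9 tested genes were called, 2 higher and 5 lower. Beside Sphk1, the largest change there was that of Mfsd2b, an S1P exporter, with 0.98 (SE 0.19), from 12 to 44 reads per library. Sphk2, Sgpl1, which cleaves S1P, and Sgpp1, which removes its phosphate, were lower by 0.30, 0.27 and 0.26 on the log2 scale, as was the neutral ceramidase Asah2 (-0.43), and the alkaline ceramidase Acer3 was higher (0.33).

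Of the phosphatase family 3 of 7 were called between the suffixes, beside 45.6% of all genes, Plpp1 and Plpp6 (0.30) higher and Plpp3 lower. Of LPA formation and conversion 2 of 10 were called, the acyltransferases Agpat4 (-0.33) and Agpat5 (0.21), and of the receptors 2 of 7, which were S1pr2 and Lpar1.

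Targets of YAP and TEAD, which G12/13-coupled receptors are known to raise, were read as a separate list of 8 genes. With dox 0 of 8 were called in NLS-N-VEGF and 0 in N-VEGF cells (edgeR, 0 and 1 at an unadjusted p under 0.05, DESeq2 0 and 0), beside 0.0220% and 0.0367% of all genes. Between the suffixes 5 of 8 were called, 4 higher and 1 lower, beside 45.6% of all genes, 22.2% higher and 23.5% lower, and the largest values were those of Ankrd1 (1.15, SE 0.10) and Ctgf (1.08, SE 0.11). The exons of Ctgf share 23.2% of their bases with an antisense gene.

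Ratios within a library do not depend on its depth, and 3 of them were chosen after the values above had been seen, so they are given as a description with no test. The ratio of S1pr3 to S1pr2, 2 receptors for the same lipid, was 3.15, 3.49, 3.45 and 3.21 (RPKM over RPKM) in the _290419 libraries and 1.74 to 2.41 in the _120519 libraries. The ranges did not overlap. Plpp1 to Plpp3 was 0.68 to 1.14 in the _290419 and 0.34 to 0.47 in the _120519 libraries, again without overlap. That separation follows from those of Plpp1 and Plpp3 given above and adds nothing to them. Plpp2 to Plpp3 was 0.65 to 1.27 against 0.52 to 0.76 with overlapping ranges.

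With dox the same ratios overlapped between the groups for S1pr3 to S1pr2 and for Plpp1 to Plpp3 in both populations. Plpp2 to Plpp3 was 0.52 to 0.65 in the N-VEGF no dox and 0.69 to 1.27 in the N-VEGF dox libraries, where Plpp3 chose the comparison, and 0.55 to 0.80 against 0.71 to 0.87 in the NLS-N-VEGF libraries. The plot of the ratios by library shows the separation by suffix in all 4 groups.

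**Figure D4:**
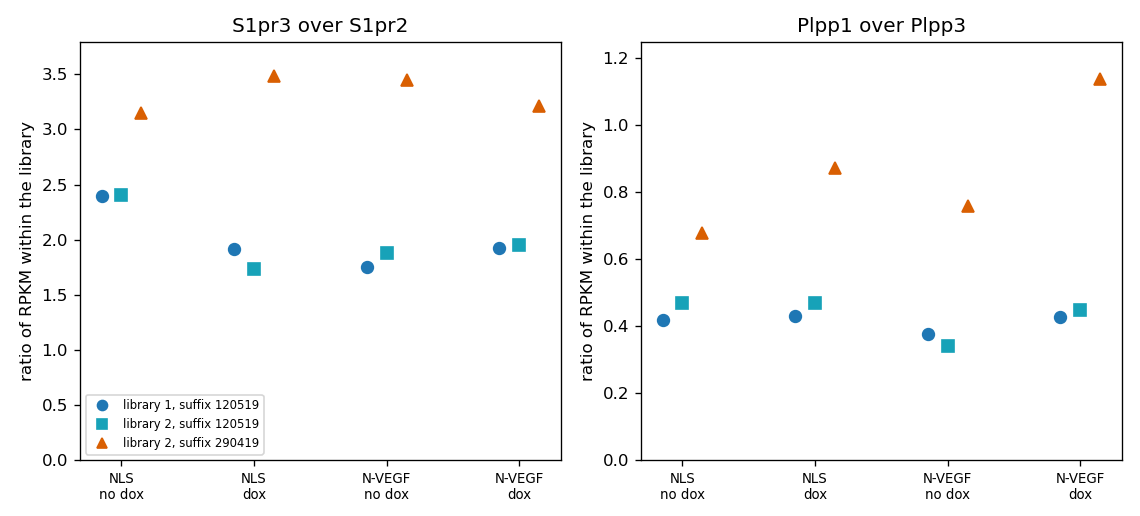
Ratio of RPKM within a library (y axis, from 0) of S1pr3 to S1pr2 and of Plpp1 to Plpp3 in the 4 groups (x axis, NLS is NLS-N-VEGF), with 1 symbol per library. The _290419 library is the highest of its group in all 4 groups, at 3.15 to 3.49 for S1pr3 to S1pr2 and 0.68 to 1.14 for Plpp1 to Plpp3.

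Other genes were ranked by how closely their level followed that of Plpp3 over the 12 libraries after the mean of each replicate label had been subtracted, over the 12058 genes whose mean reached 1 CPM. The points share libraries and the 4 groups, so the correlations are a description. The closest were Gas2 (Pearson r = 0.98), Dcn (0.96), which encodes the small proteoglycan decorin, Trib2 (0.95), Arl4c (0.95) and Armcx2 (0.94). The most opposite were the transcription factor Klf4 (-0.94), the collagen gene Col5a2 (-0.94), the adhesion receptor Adgrg1 (-0.94), the ephrin receptor Epha2 (-0.93) and Sema4b (-0.93).

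With the label means removed, most of what remains of the level of Plpp3 is its difference with dox, so the choice of Gas2 and Dcn set their direction and their values are a description. The fitted log2 fold changes for dox, first of the NLS-N-VEGF and then of the N-VEGF cells, were -0.26 (SE 0.16) and -0.44 (SE 0.16) for Gas2 and -0.43 (SE 0.16) and -0.64 (SE 0.16) for Dcn. Among the other 8 genes of the pathway, Lpar1 followed Plpp3 most closely (r = 0.55), at rank 972 of the 12058 genes. The remaining 7 had values between -0.59 for Lpar4 and 0.26 for S1pr2 and S1pr3.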

How the data were processed

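RNA sequencing was done by the authors on 12 libraries (TruSeq v2, single reads). Per the study's methods and the submitters' processing notes, reads were trimmed with Trim Galore, aligned with TopHat2 2.1.0 to GRCm38 and counted with HTSeq 0.6.1. The authors deposited whole-number read counts for each gene, not normalised. Groups came from the labels, and all value columns were matched.

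Counts were scaled with TMM, filtered with filterByExpr by group and tested with edgeR 4.0.16 (quasi-likelihood, R 4.3.3), with 1 mean per group over all libraries, two-sided, at an adjusted p of 0.05 over 13608 genes. The suffix was tested with the group as a covariate. RPKM used exon lengths of GENCODE M21. Pairs used log2(CPM + 0.25), and likeness log2(CPM + 2). The floor of 3 counts covers counting error only, and intervals of 2 SE include the spread between libraries. The libraries of each group differed by more than counting noise (chi-square per degree of freedom from 1.76 to 76.3). Libraries 1 and 2 of suffix _120519 gave 1.76 in NLS-N-VEGF no dox, 5.03 in NLS-N-VEGF dox and 3.09 in N-VEGF dox. In N-VEGF no dox they gave 26.7, above the 17.1 to 23.2 between suffixes in the NLS-N-VEGF groups. The same replicate label was shared by the 4 groups, and deviations from the group means correlated within a label (18 pairs, mean r = 0.59, from 0.40 to 0.83), so the label was taken to pair the samples, from the data and not from a stated design. Libraries 1 and 2 of the suffix _120519 also correlated across groups (12 pairs, mean r = 0.47, from 0.14 to 0.68), and libraries of different suffixes had r from -0.76 to -0.35 (24 pairs), so the libraries went together by suffix, and the label within _120519 added little (same label mean r = 0.51). The biological coefficient of variation was 15.5% without and 7.86% with the label as a block.

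Every one of the 9 genes was named in each comparison. Of the pathway lists, genes called in a dox or population contrast and the 2 largest called per list in the suffix contrast were named, and Sphk2, Sgpl1, Sgpp1 and Acer3 were added after their values were seen. The genes of 1 list are counted in the totals and not reported by name here. The 9 genes and the lists were chosen with earlier results of these data known. Alternatives were DESeq2 1.42.0, RLE scaling, 2 filters, the replicate block, the suffix as a term, parts of the libraries and leaving out each library. The code was tested on simulated data.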

Additional observations from a re-analysis of the deposited data

How the results depend on the processing

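The N-VEGF dox comparison carries no test of the 9 genes. In the other dox and population comparisons, none of the genes tested passed the threshold in the fit as reported. Among these, Plpp3 was tested only for dox in the NLS-N-VEGF cells. Outside the N-VEGF dox comparison, the count of the 9 genes past the threshold went from 0 to 1 only in the fit of the _120519 libraries. In the _120519 libraries alone, S1pr3 passed for dox in NLS-N-VEGF cells (-0.45), and the smaller number of libraries is part of that fit. In N-VEGF cells, whose values chose Plpp3, no call of it is made. Its log2 fold change there was -0.45 (SE 0.08) with the replicate block and -0.45 (SE 0.07) with the suffix as a term. The block changed no call of the 9 genes in the other comparisons, nor any call of the 36 pathway genes. Between the suffixes the count was 5 or 6 in every fit, S1pr3 being the added gene, and the pathway count of 16 lay between 13 and 26 when 1 library was left out, with 26 without library 1 of N-VEGF no dox (suffix _120519). When 1 library was left out, the log2 fold change of Plpp3 with dox in NLS-N-VEGF cells lay between -0.33 and -0.11 and did not change sign. In N-VEGF cells it lay between -0.59 and -0.26. The choice of the gene set the sign there, so nothing is read from that range.

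Some values changed sign in some fits, and the cause was not tested. They were near 0 in the fit as reported, except Lpar4 in the difference of the dox effects, at 0.50 (SE 0.68). For S1pr2 with dox in NLS-N-VEGF cells the value was 0.00136 with no filter, 0.0035 with the replicate block and 0.0039 with the suffix as a term. In the _120519 libraries alone the values were -0.22 for the dox effect on Sphk1 in NLS-N-VEGF cells, -0.17 for Lpar4 and -0.20 for Sphk1 in the difference of the dox effects, 0.067 for Plpp1 and 0.10 for Plpp2 between the populations with dox, and 0.011 for Lpar1 between them without dox. Plpp1 between the populations with dox was 0.00052 with DESeq2, 0.0023 with RLE scaling, 0.00843 with no filter, 0.0045 with at least 10 counts in every library, 0.0077 with the replicate block, 0.0077 with the suffix as a term and 0.0022 with only the groups compared. Sphk1 in that comparison was 0.083 with the replicate block and 0.085 with the suffix as a term. Lpar1 between the populations without dox was 0.00238 with at least 10 counts in every library and 0.000408 with only the groups compared, and Plpp2 between the suffixes was -0.012 with no filter.

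Leaving out 1 library changed the sign of further values, none of which passed the test. The ranges for dox in NLS-N-VEGF cells were -0.30 to 0.028 for Plpp1, -0.087 to 0.018 for Enpp2, -0.18 to 0.11 for S1pr2 and -0.26 to 0.18 for Sphk1. For the difference of the dox effects they were -0.25 to 0.26 for Plpp1, -0.12 to 0.15 for Plpp2, -0.12 to 0.065 for Lpar1, -0.013 to 1.03 for Lpar4, -0.12 to 0.29 for S1pr2 and -0.32 to 0.40 for Sphk1. Between the populations with dox they were -0.22 to 0.29 for Plpp1, -0.065 to 0.059 for Plpp2, -0.12 to 0.034 for Lpar1, -0.19 to 0.092 for S1pr2, -0.21 to 0.10 for S1pr3 and -0.38 to 0.22 for Sphk1. Without dox they were -0.12 to 0.25 for Plpp1, -0.17 to 0.095 for Plpp2, -0.036 to 0.30 for Enpp2, -0.094 to 0.090 for Lpar1, -0.50 to 0.55 for Lpar4, -0.32 to 0.088 for S1pr2 and -0.43 to 0.20 for Sphk1. Between the suffixes the range of Plpp2 was -0.070 to 0.12. At 4 to 30 reads per library, depth limits what can be said of Lpar4.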
